A study of Mus musculus with 4 samples.

Results

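The potassium channel genes described here were all protein-coding autosomal mouse genes whose symbol begins with Kcn followed by a family letter and a number, without Kcnk9 and Kcnq1. They came to 89 of the 20807 autosomal protein-coding genes of the GENCODE M21 annotation (GRCm38). The list held 38 voltage-gated subunits (Kcna, Kcnb, Kcnc, Kcnd, Kcnf, Kcng, Kcnh, Kcnq, Kcns and Kcnv), 15 inward rectifiers (Kcnj), 13 two-pore channels (Kcnk), 8 calcium- or sodium-activated channels (Kcnma1, Kcnn, Kcnt and Kcnu1) and 15 auxiliary subunits (Kcnab, Kcne, Kcnip and Kcnmb). Classes follow the gene family, so Kcnu1 is counted with the calcium- or sodium-activated channels without a claim about what opens it. The rule used symbols and annotation and no measured value, but it was set with earlier results of these data known.

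CTCF binding was mapped by chromatin immunoprecipitation and sequencing. The tissue was frozen left cerebral cortex from female adults of B6CASTF1/J, aged 2 months, the first-generation cross of C57BL/6J with CAST/EiJ. Pool I (biological replicate 1) and pool J (biological replicate 2) each joined 4 cortex biosamples and gave 2 technical replicate libraries, 4 in all. The study had 1 antibody and no treatment or second genotype, so the comparisons are between gene classes, between these genes and all others, and between the pools.

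Both libraries of a pool were merged before peaks were called, so single libraries have no values here, the depth of sequencing is unknown, and the animals of a pool cannot be told apart. The conservative list (44672 peaks) was made from the pools as replicates, the optimal list (50827) from pooled reads, and the pool I list (82131) and the pool J list (52658) from 1 pool each. All 4 were thresholded at an irreproducible discovery rate (IDR) of 0.05. Strength is given as the peak's signal value, the authors' own peak value in a unit they did not state, and as its percentile among all peaks of the same list, where 100 is strongest. Intervals are exact 95% binomial (Clopper-Pearson) unless named otherwise and cover counting of genes or peaks only. Values are from the conservative list unless another is named.

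Potassium channels let potassium leave the neuron and thereby set its resting potential, end its action potentials and limit how fast it can fire. Voltage-gated, calcium-activated, inwardly rectifying and two-pore channels open on different cues, and auxiliary subunits change their gating and their traffic to the membrane. CTCF is a zinc finger protein that binds a long, directional DNA motif and, with the cohesin complex, marks the anchors of chromatin loops, which form mostly between motifs that point towards each other. Binding shows where the protein sat, not whether a gene was expressed.

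The sequences below carry the motif at the sites the results turn on. Each is read 5′ to 3′ on the strand of the motif from the GRCm38.p6 genome (RefSeq; chromosome lengths match mm10), and capitals mark the motif match of 20 bases. The most frequent base at each position of the motif, learned from strong peaks elsewhere in the genome, reads GTGGCCACCAGGGGGCGCTA. The first 3 sequences lie at promoters and are strong promoter sites with a match outside untranslated regions. The next 5 are the strongest site inside a gene of each class.
Kcna7: tccatCCGGCCGGCAGAGGGCGCGCgagat
Kcnj11: cagccTCCGCCGCCAGAGGGCGCCAgatcg
Kcnk13: cctctCAGGCCAGAAGAGGGCGCTGcgtgc
Kcnq3: cagacTTAACCAGCAGGGGGCAGCCaacaa
Kcnj6: gccgcTGCGCCGCCAGGTGGCGCTGgcgct
Kcnk4: gacgcCTGCCCGGTAGGGGGAGCTCagaga
Kcnma1: cagaaGACGCCACCAGAGGACGCCAcatca
Kcnab2: ctggcACCACCAGTAGGGGGCACCAccatt

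The 3 promoter sequences lie upstream of the annotated genes, at chr7:45405220-45405249 (plus strand, Kcna7), chr7:46100793-46100822 (plus, Kcnj11) and chr12:99964443-99964472 (minus, Kcnk13). The other 5 lie in introns, at chr15:66034072-66034101 (plus, Kcnq3), chr16:94788353-94788382 (plus, Kcnj6), chr19:6924599-6924628 (plus, Kcnk4), chr14:24008458-24008487 (minus, Kcnma1) and chr4:152432511-152432540 (minus, Kcnab2). Between 12 and 15 of the 20 bases in capitals were the most frequent base of the motif. The Kcna7, Kcnma1 and Kcnab2 matches point along the gene and the other 5 point against it.

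A CTCF summit lay within 1000 bp of a transcription start site (TSS) in 21 of the 89 channel genes (23.6%, interval 15.2 to 33.8%), against 21.4% of all autosomal coding genes. A summit lay inside the gene in 55 (61.8%, interval 50.9 to 71.9%), against 47.0% of all. A summit lay in the gene or within 50 kb of it in 87 (97.8%), against 88.0% of all. The promoter share was thus near the background, while the share with a summit inside the gene was above it. The channel genes were longer than the average gene, with a median length of 32016 bp against 17629 bp, which moves with the second share and is taken up below.

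The 4 lists gave the same order. In the optimal list 24 promoters (background 24.5%), 58 genes (49.8%) and 87 loci with 50 kb (89.0%) held a summit. In the pool I list the counts were 36 promoters (38.6%), 65 genes (60.8%) and 89 loci (91.3%), so no channel gene was without a site nearby. In the pool J list they were 24 promoters (26.0%), 61 genes (50.7%) and 88 loci (89.1%).

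**Figure D1:**
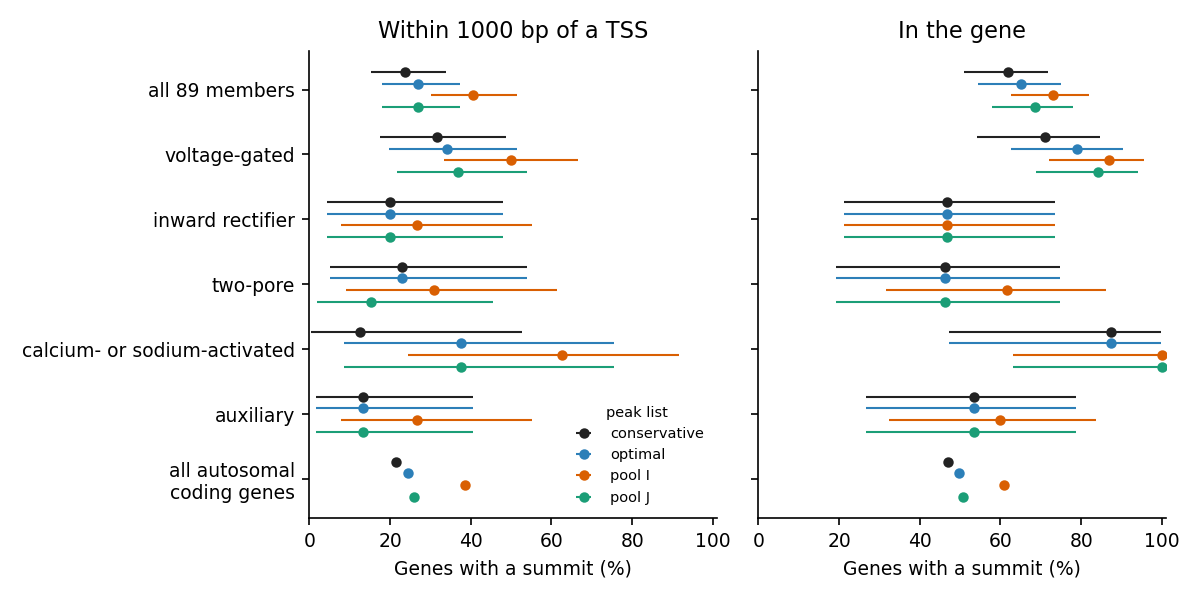
Share of channel genes with a CTCF summit within 1000 bp of a TSS (left) and in the gene (right), in percent, by class and peak list; points are shares and lines exact 95% intervals, which for all autosomal coding genes are narrower than the point. The promoter share of all 89 members runs from 23.6% in the conservative list to 40.4% in the pool I list, beside 21.4% and 38.6% of all genes.

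Among the voltage-gated subunits, which form the channel pore or join pore-forming subunits, 12 of 38 promoters held a summit (31.6%, interval 17.5 to 48.7%). Kcnh1, an ether-a-go-go channel, had the strongest promoter summit of all channel genes, 87 bp upstream of its TSS, with a signal value of 315 in pool I and 254 in pool J (percentile 92.3). No whole motif match fitted within 50 bp of this summit, at chr1:192190687. One fitted within 50 bp of the pool J summit, 70 bp upstream of the TSS, at chr1:192190725-192190744 (plus strand, along the gene). That match starts inside the 50 bp limit of the conservative summit and ends outside it, so it was not counted there. Kcna7, a shaker-type channel, had a pair of promoter summits: that of the printed sequence, 425 bp upstream, measured 315 in pool I and 225 in pool J (percentile 87.4), and one 628 bp downstream measured 59.9 and 26.0 (percentile 4.05). The sites of 1 promoter thus spanned most of the range of strength.

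Kcnb2, a delayed rectifier, had a weak summit without a motif, 610 bp upstream (69.7 and 27.4, percentile 7.96). Kcnc1, a fast channel of rapidly firing interneurons, had a motif summit 14 bp from its TSS at 200 and 94.7 (percentile 53.8).

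The modulatory, electrically silent subunits, which form no channel on their own and alter the channels they join, were represented by Kcnf1 (percentile 52.5, motif), Kcng2 (18.7, motif), Kcns2 (50.4, no motif) and Kcnv1 (26.4, no motif), all downstream of the TSS. The Kcng2 summit is also within 1000 bp of a TSS of D330025C20Rik. Kcnh4 had a motif summit 201 bp upstream (147 in pool I, 60.6 in pool J, percentile 40.7). Of the Kcnq genes, whose products carry the M-current that damps repetitive firing, Kcnq3 had a weak motif summit 820 bp downstream (81.8 and 32.7, percentile 15) and Kcnq5 a summit in a coding exon 137 bp downstream (130 and 36.0, percentile 31.2).

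Of the inward rectifiers, which pass current mainly near the resting potential, 3 of 15 promoters held a summit. Kcnj11, the pore of the ATP-sensitive channel, had the site of the printed sequence, with 327 in pool I and 178 in pool J (percentile 83.0). It lies 570 bp upstream of the TSS of the annotated basic transcript. Kcnj6, a G protein-gated channel, had a summit without a motif 73 bp upstream (239 and 139, percentile 64.9), and Kcnj2, a strong classical rectifier, had one 15 bp upstream near the weak end (76.0 and 22.6, percentile 9.47).

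Of the two-pore channels, which carry background leak current, 3 of 13 promoters held a summit. Kcnk13, known for its role in microglia, had the printed site 32 bp upstream of its TSS (303 in pool I, 183 in pool J, percentile 80.4). Its close relative Kcnk12 had a weaker summit without a motif 236 bp downstream (103 and 29.7, percentile 21.7), and Kcnk15 one with a motif 85 bp upstream (75.6 and 26.1, percentile 11.6). These paralogs thus differed in strength by much of the range.

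Kcnma1, the large-conductance calcium-activated channel, was the sole member of its class with a conservative promoter summit (1 of 8), at 193 in pool I and 91.0 in pool J (percentile 51.7) and without a motif. The class had 3 of 8 in the optimal list (all coding genes 24.5%), 5 of 8 in pool I (38.6%) and 3 of 8 in pool J (26.0%). Of the auxiliary subunits 2 of 15 had a conservative promoter summit, both of the Kcnip family of calcium sensors that bind Kcnd channels. Kcnip2 measured 195 and 93.7 (percentile 52.6) and Kcnip4 224 and 112 (percentile 58.8), both with a motif and both within 100 bp of a TSS. No Kcne, Kcnab or Kcnmb gene had a conservative promoter summit. With 8 to 38 genes a class, the intervals of the 5 classes overlapped for promoters.

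**Figure D2:**
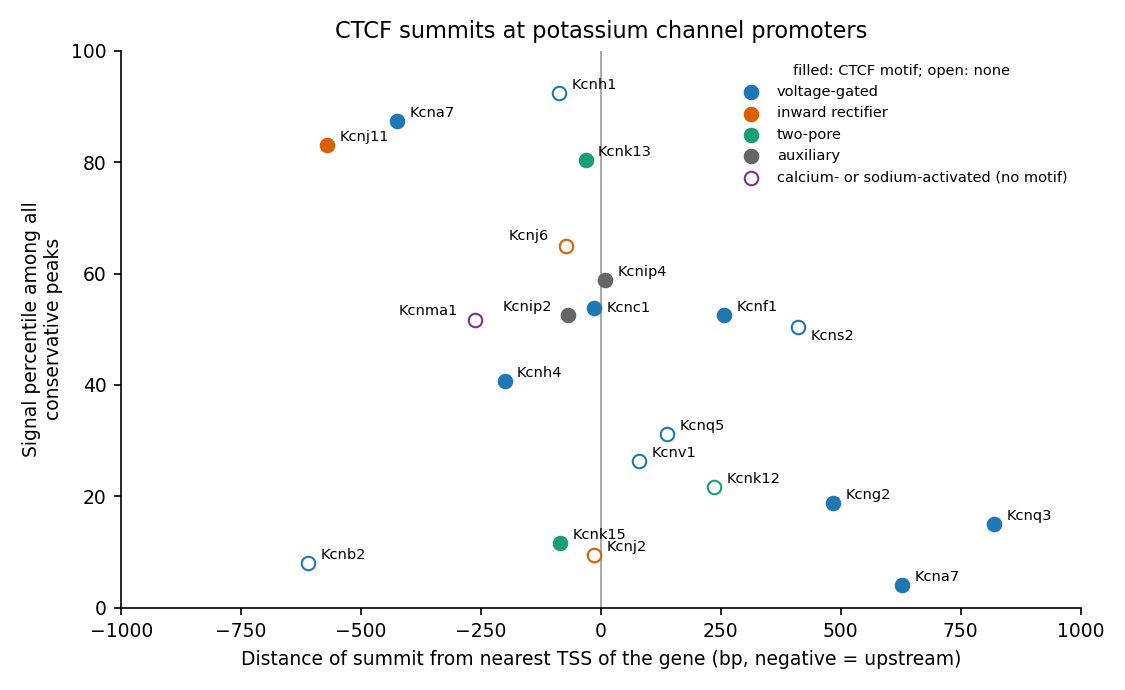
Distance of 21 conservative promoter summits of 20 channel genes from the nearest TSS of the gene (bp, horizontal) against its signal percentile (vertical), coloured by class, filled with and open without a motif match. Strong and weak summits occur on both sides, from Kcnh1 at percentile 92.3 to the downstream Kcna7 summit at 4.05, and 9 of the 21 lie within 100 bp of the TSS.

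Over all 23 promoter summits of the 21 genes, 14 lay upstream of the TSS and 9 at or downstream of it, and 13 had a motif match (56.5%, interval 34.5 to 76.8%) against 42.3% of the 4634 summits at all coding promoters. A match means a score within 50 bp of the summit that 1% of windows 1000 bp away reached. The median percentile was 52.6 with a match and 28.8 without. Channel promoters rich in CpG (at least 50% GC and an observed to expected CpG ratio of at least 0.6 over 500 bp to each side) held a summit in 13 of 46 genes (28.3%), against 31.7% of all such genes. The other channel promoters held one in 8 of 43 (18.6%), against 11.0% of all such genes.

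Inside the gene a summit lay in 27 of 38 voltage-gated genes, 7 of 15 inward rectifiers, 6 of 13 two-pore channels, 7 of 8 calcium- or sodium-activated channels and 8 of 15 auxiliary subunits. The share over all autosomal coding genes was 47.0%. Median gene lengths of the classes, in the same order, were 29221, 26705, 35516, 121643 and 24223 bp. The class shares were not corrected for length, and differences between classes were not tested. In total 160 summits lay in 10.01 Mb of channel gene, or 1.60 per 100 kb (exact Poisson interval 1.36 to 1.87), below the 2.35 per 100 kb of all autosomal coding genes. Density was lowest in the voltage-gated genes (1.20 per 100 kb) and highest in the inward rectifiers (2.35).

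Density falls with gene length in all genes, so shares and densities were set beside genes of the same length class. Of channel genes under 10 kb, 9 of 21 held a summit (42.9%), against 17.1% of all coding genes of that length. These were Kcna1, Kcna7, Kcnf1, Kcns1, Kcns2, Kcnv1, Kcnj9, Kcnj11 and Kcnk15, chosen here by that length class after their values were seen. In Kcna7, Kcnf1, Kcns2 and Kcnv1 the only internal summit was a promoter summit already described. Under 10 kb the promoter share was 28.6% (6 of 21), against 15.2% of all coding genes of that length. From 10 to 50 kb the shares were 48.5% and 50.4%, from 50 to 100 kb 69.2% and 79.1%, from 100 to 200 kb 100% (5 of 5) and 91.0%, and over 200 kb 94.1% (16 of 17) and 96.2%. Density per 100 kb was 9.26 in channel genes and 4.22 in all under 10 kb, 3.25 and 3.37 from 10 to 50 kb, and 3.004 and 2.70 from 50 to 100 kb. From 100 to 200 kb it was 1.40 and 2.33, and above 200 kb 1.13 and 1.51, so channel genes were lower among the longest genes and not in every class. The higher share of channel genes with an internal summit was therefore seen under 10 kb, in part through promoter summits, and, among only 5 genes, from 100 to 200 kb. These differences were not tested.

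**Figure D3:**
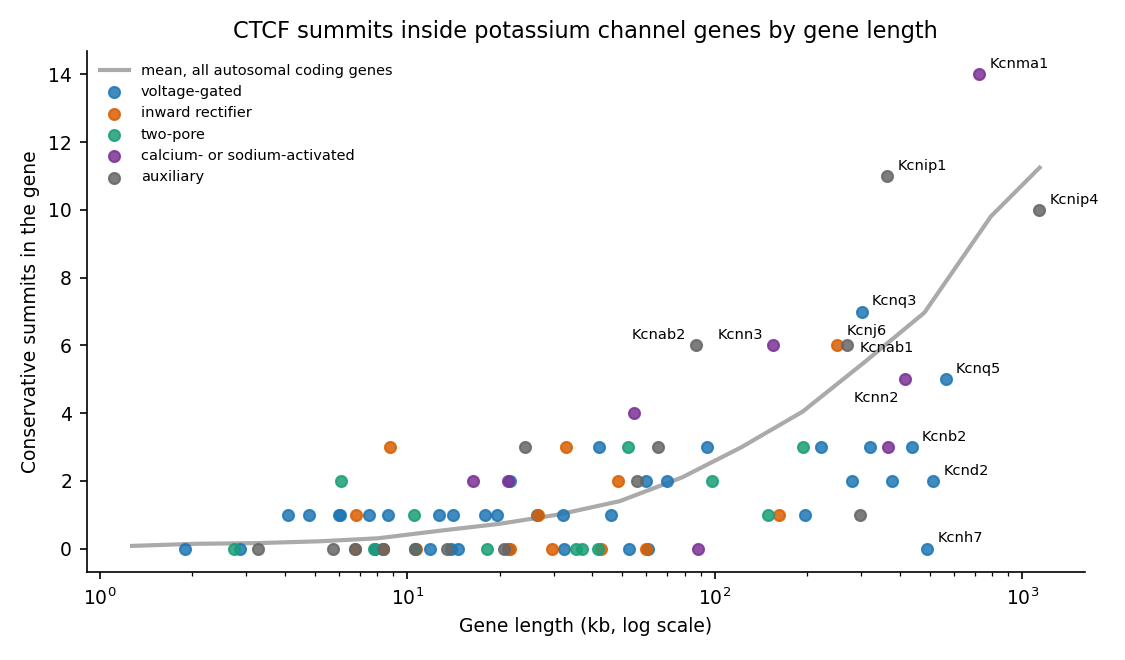
Number of conservative summits in each channel gene against gene length (kb, log scale), coloured by class; the grey line is the mean of all autosomal coding genes in bins of length. Kcnma1 with 14 and Kcnip1 with 11 summits lie above the line, and Kcnh7 with 0, Kcnd2 with 2 and Kcnb2 with 3 lie below it.

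Kcnma1 (chr14:23289431-24014491, minus strand, 725061 bp) held most summits, 14, of which 11 had a motif. The strongest, in an intron near its 5′ end and shown above, measured 369 in pool I and 255 in pool J (percentile 98.1). The small-conductance channels of the same class, which shape the after-hyperpolarization, differed among themselves. Kcnn3 held 6 summits, none above percentile 22, while Kcnn1 held 2, the stronger at 368 and 254 (percentile 97.5). Kcnn2 held 5 (strongest 66.0), Kcnt1 4 (54.4), Kcnt2 3 (75.2) and Kcnn4 2 (93.7). In Kcnn3 many summits thus went with a weak best one, and in Kcnn1 few with a strong one. Kcnu1, known from sperm, was the sole member of the class with none in the conservative list, where its nearest summit was 35786 bp away. It held 1 in the pool I list and 1 in the pool J list.

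In the auxiliary genes, Kcnip1 (chr11:33629339-33993152, minus strand) held 11 summits, 10 with a motif (strongest 90.8), and Kcnip4 held 10 (strongest 91.8). Kcnip3, which also acts as a calcium-dependent repressor of transcription, held 3, the strongest at percentile 93.2. Of the cytoplasmic beta subunits, Kcnab1 held 6 (strongest 74.5) and Kcnab2 also 6. The intronic Kcnab2 site shown above was the strongest of any channel gene, at 381 in pool I and 286 in pool J (percentile 99.6). No Kcne gene, single-span partners of voltage-gated channels, held a summit in the gene. The longest auxiliary genes with none were Kcnmb3, Kcne1 and Kcnmb1, all with a summit within 50 kb.

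In the voltage-gated class Kcnq3 held 7 summits, the strongest (the printed sequence) at 367 in pool I and 242 in pool J (percentile 96.9), and Kcnq5 held 5 (strongest 90.5). Kcnb2, Kcnh1, Kcnd3 and Kcnc1 held 3 each. Long voltage-gated genes with none in the conservative list included Kcnh7 (490874 bp, nearest summit 32602 bp away) and Kcns3. Both held at least 1 internal summit in each of the optimal, pool I and pool J lists. Of all autosomal coding genes over 200 kb, 917 of 953 held an internal summit.

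Among inward rectifiers, Kcnj6 led with 6 summits, the strongest (printed above) at 369 in pool I and 245 in pool J (percentile 97.3). Kcnj10, the main potassium channel of astrocytes, held 3 (strongest 371 and 230, percentile 96.4), and its neighbour Kcnj9, a G protein-gated channel, held 3 (338 and 236, percentile 93.7). Kcnj11 held 1 inside the gene at percentile 96.1. Kcnj16, Kcnj15 and Kcnj5 were the longest with none. Among two-pore channels Kcnk4, a mechanosensitive channel, had the strongest internal summit (354 and 214, percentile 92.5), Kcnk15 the next (339 and 175, percentile 85.1) and Kcnk10 the third (52.4). Kcnk2 and Kcnk12 held most, 3 each, and Kcnk5, Kcnk3 and Kcnk1 were the longest with none. In the pool I list Kcnk3 held 2 and Kcnk1 held 3.

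Of the 89 genes, Kcna4 and Kcnv2 had no conservative summit within 50 kb. The nearest to Kcna4, a shaker channel that inactivates rapidly, was 114751 bp away, and the nearest to Kcnv2, a silent subunit known from the retina, 58441 bp away. Both had a site within 50 kb in pool I, and for Kcna4 it lay 96 bp upstream of the TSS.

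The 170 distinct summits in channel genes or at their promoters had a median percentile of 45.8 (interval from order statistics 38.6 to 52.3, range 0.815 to 99.6), and 119 had a motif match (70.0%, interval 62.5 to 76.8%), against 70.0% of all autosomal summits. Of those inside genes 138 lay in introns, 11 in coding exons and 11 in untranslated regions. A match was found in 103 of the intronic and 4 of the coding exon summits. The letters at the summit were soft-masked as repeat in 12.4% of channel summits, against 20.0% of all and 24.0% of summits inside coding genes away from TSSs. In the 50 kb flanks 309 summits had a median percentile of 54.7 and a motif in 72.8%. Some of these are also among the 170, since a flank can reach into a neighbouring channel gene, as that of Kcnj9 into Kcnj10.

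Motifs inside channel genes pointed against the gene more often than along it, a pattern noticed in these data and not tested. Away from the TSSs, 69 of 106 motif summits lay on the strand opposite to the gene (65.1%, interval 55.2 to 74.1%), against 7652 of 15200 (50.3%) in all autosomal coding genes. The interval treats sites as independent, and sites of 1 gene are not. By gene, 26 of 42 channel genes had more motifs against than along, 8 the reverse and 8 equal numbers, while over all genes 44.8% had more against and 42.6% more along.

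The opposite share was 23 of 30 in voltage-gated genes, 8 of 13 in inward rectifiers, 5 of 8 in two-pore channels, 14 of 25 in calcium- or sodium-activated channels and 19 of 30 in auxiliary genes. All genes gave 50.3%, which lay outside the interval of the voltage-gated class (57.7 to 90.1%) and inside those of the other classes. Kcnip1 gave 8 of 10, Kcnma1 7 of 11 and Kcnip4 4 of 7. By gene length the opposite share was 2 of 3 under 10 kb (all genes 50.1%), 16 of 21 from 10 to 50 kb (48.7%) and 38 of 57 over 200 kb (50.3%). From 50 to 100 kb it was 9 of 17 (52.9%, all genes 51.2%) and from 100 to 200 kb 4 of 8 (50%, all genes 52.1%), so there it was near the background. Among summits in the stronger 50% by signal it was 41 of 55 (74.5%, all genes 52.4%), and in the weaker 50% it was 28 of 51 (54.9%, all genes 48.0%). In the flanks the order was not the same: 44.0% opposite upstream of channel genes (all genes 52.1%) and 54.8% downstream (all genes 46.0%). At the promoters 5 of 13 were opposite (38.5%), near the 42.5% of all coding promoters.

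**Figure D4:**
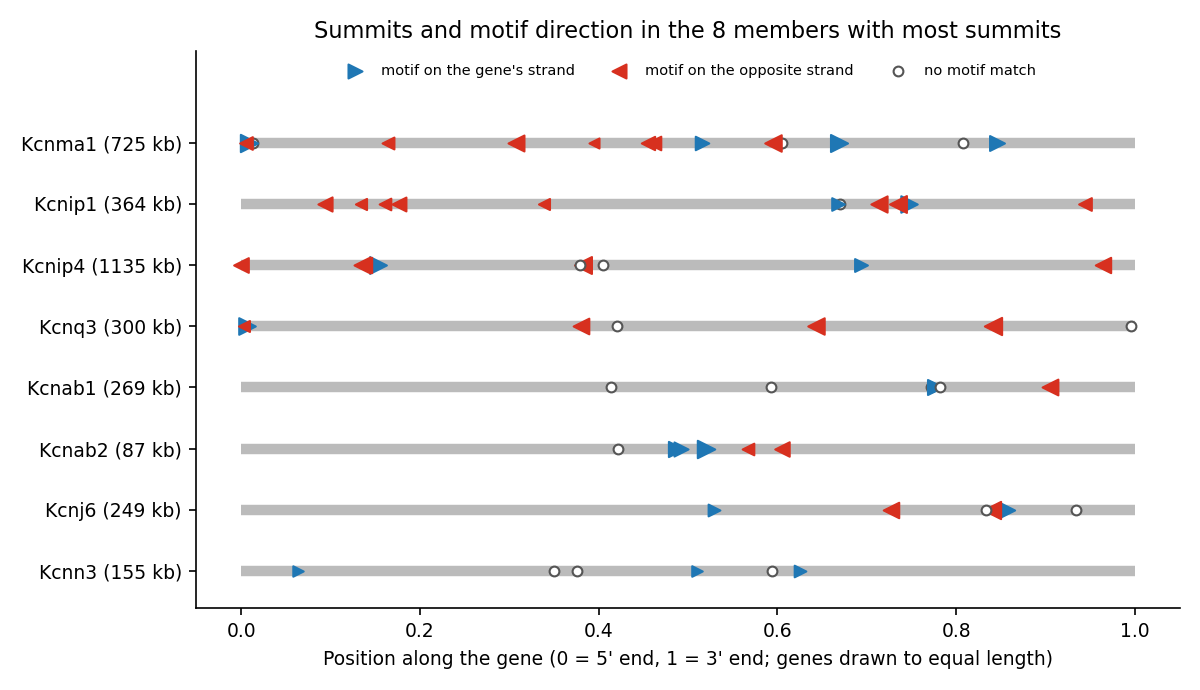
Conservative summits in the 8 channel genes with most summits, placed along the gene (0 is the 5′ end, 1 the 3′ end, genes drawn to equal length); right-pointing triangles mark a motif along the gene, left-pointing ones a motif against it, open circles no match, and larger triangles a higher signal percentile. Kcnip1 has 8 of its 10 motifs against the gene, and Kcnn3 has all 3 of its motifs along it.

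In the 30 channel genes over 50 kb with a summit, 26.2% of the 122 summits lay in the first, 32.8% in the middle and 41.0% in the last part of equal length. Over all coding genes of that length the shares were 33.9%, 29.8% and 36.3%.

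Several channel genes are neighbours, and CTCF summits lay between most of them. How often gaps of this size between other coding genes held a summit was not counted. Of all autosomal coding genes, 88.0% had a summit in the gene or within 50 kb. In the shaker cluster on chromosome 6, which holds Kcna5, Kcna1 and Kcna6 on 1 strand, 7 summits lay between Kcna5 and Kcna1 and 3 between Kcna1 and Kcna6. The strongest of the latter measured 360 in pool I and 230 in pool J (percentile 95.5). In the cluster on chromosome 3, 3 summits lay between Kcna3 and Kcna2 (strongest 88.4) and 3 between Kcna2 and Kcna10 (strongest 58.8), with a further one inside Kcna10 (86.1). Kcnj16 and Kcnj2 were separated by 3 summits (strongest 80.0), which include the Kcnj2 promoter summit at percentile 9.47. Kcne2 and Kcne1 were separated by 8 (strongest 92.3) and Kcnk5 and Kcnk16 by 1 (94.9). The divergent pair Kcnj9 and Kcnj10, which lie 11891 bp apart, was separated by 1 moderate summit (42.1) although each held stronger ones inside. Kcnmb1 lies within the span of Kcnip1 on the other strand and held no summit of its own.

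The genes of 25 channel partners (scaffolds, accessory proteins and calmodulins) gave 6 promoters, 15 genes and 25 loci within 50 kb with a summit. Over all autosomal coding genes these shares were 21.4%, 47.0% and 88.0%. The promoter share of the partners (24.0%) was near that of all genes, as was that of the channels, so it shows no likeness particular to partners and channels. Adam22 and Lgi1, a receptor and its secreted ligand tied to Kcna channels, had promoter summits at percentiles 19.6 and 65.7, and Dpp6, a Kcnd partner, at 64.4. Cntnap1 had one at 50.9, Sptbn4 at 24.7 and Calm3 at 1.68. Promoter shares of the 43 sodium, calcium and HCN channel genes (10, 23.3%) and of the 41 glutamate and GABA receptor genes (12, 29.3%) had intervals that overlapped that of the potassium channels. A summit inside the gene was found in 34 (79.1%, interval 64.0 to 90.0%) and 32 (78.0%, interval 62.4 to 89.4%) of them, shares above that of the potassium channels by point value with overlapping intervals. Both groups had longer genes, with median lengths of 98902 and 138253 bp against 32016 bp. Their densities were 2.10 and 1.06 summits per 100 kb, against 1.60 in the potassium channels.

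Between the pools, signal values were on the whole higher in pool I: the median of log2(pool I / pool J) was 1.09 over autosomal conservative peaks, and ratios below are given relative to it. The list of pool I was also the longest. Over the 170 channel summits the SD of the ratio was 0.36 on the log2 scale and 1 exceeded 2-fold, against an SD of 0.39 and 211 of 43448 among all autosomal summits, so the channel sites were near the background. The 1 site was a summit in a coding exon of Kcns1, a silent subunit, with 115 in pool I and 24.0 in pool J, 1.18 above the median on the log2 scale and without a motif. In 5 equal bins of signal from weak to strong the median of channel summits was 0.28, 0.27, 0.05, −0.16 and −0.41, and that of all summits 0.30, 0.26, 0.08, −0.17 and −0.42. Weak sites thus leaned to pool I and strong ones to pool J, in channel genes as in the rest; whether depth or enrichment differed between the pools was not tested.

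**Figure D5:**
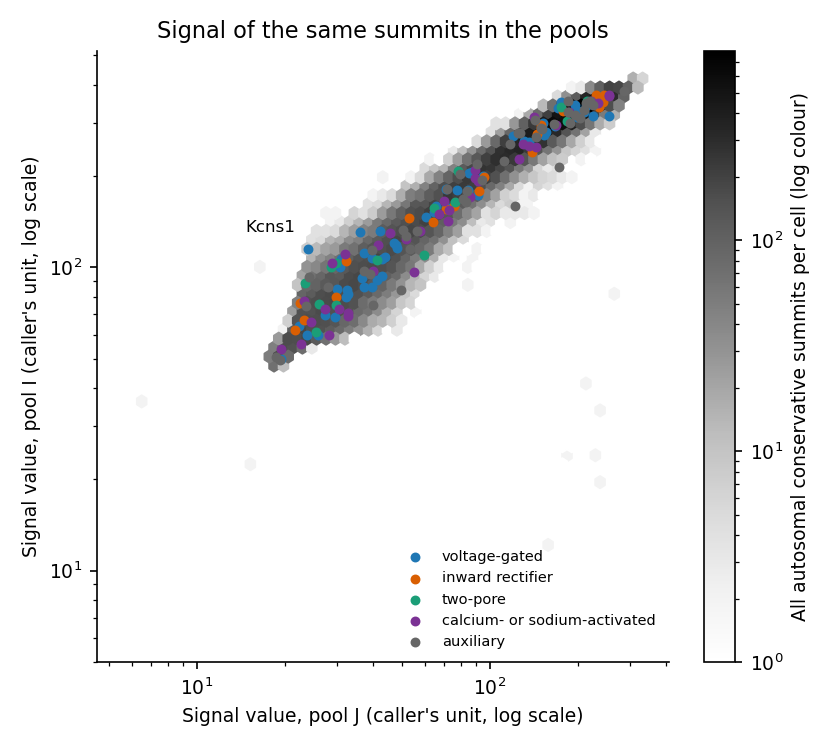
Signal value of the same conservative summits in pool J (horizontal) and pool I (vertical), both on log scales in the caller's unstated unit; coloured points are the 170 summits of channel genes by class and grey cells count all autosomal summits. Kcns1, at 24.0 in pool J and 115 in pool I, is the channel summit farthest from the common line.

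Of the 325 pool I summits in or at channel genes, 193 overlapped a pool J peak (59.4%, interval 53.8 to 64.8%), against 63.0% of all, and of the 205 pool J summits 195 overlapped a pool I peak (95.1%), against 97.5% of all. The share rose with signal in pool I, from 4 of 75 in the weakest of 5 equal bins to 48 of 60 in the middle bin and 60 of 60 in the strongest. Over all autosomal summits the shares in the same bins were 11.6%, 76.3% and 99.99%, a rise of the same kind.

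Promoters were called in both pools for 22 channel genes, in pool I alone for 14, in pool J alone for 2 and in neither for 51. These were 24.7%, 15.7%, 2.25% and 57.3% of the channel genes, and the shares of all autosomal coding genes were 25.3%, 13.2%, 0.644% and 60.8%. Those of pool I alone were Kcna2, Kcna4, Kcna6, Kcnc2, Kcnh3, Kcnh8, Kcnv1, Kcnj12, Kcnk1, Kcnk12, Kcnab1, Kcnmb4, Kcnn1 and Kcnt2, and those of pool J alone Kcna3 and Kcnc4. Pool I percentiles had a median of 33.7 (5.72 to 60.9) for the first group and 72.1 (11.8 to 92.3) for the promoters of both pools. A peak below the threshold was present in the other pool at 11 of the 14 and at both of the 2. At those 2 the strongest promoter peak had a higher signal value in pool I than in pool J: 32.5 against 7.21 for Kcna3 and 25.2 against 14.7 for Kcnc4. Their IDR was 31.4% and 25.4% in pool I, and 4.31% and 4.56% in pool J. In the pool J list both were near the weak end (percentiles 0.706 and 3.45). For Kcna4 the promoter measured 44.1 in pool I and 15.8 in pool J, where its IDR was 18.5%, and for Kcna2 39.6 and 19.6 with an IDR of 5.26% in pool J, just past the threshold. Kcnk12 and Kcnv1 passed in the conservative list but not in the pool J list.

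Of the 68 channel genes without a conservative promoter summit, 34 had a promoter peak in the ranked list of both pools before its threshold, and 36.9% of all coding genes without one did. With the ranked lists of the single pools added it was 43 of the 68 (63.2%, all genes 53.2%), which left 25 channel genes with no promoter peak in any of the 3 ranked lists.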

How the data were processed

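CTCF ChIP-seq peaks of left cerebral cortex were grouped by the labels into pool I and pool J, each with 2 technical replicates. The authors deposited peak lists on mm10; 4 thresholded and 3 ranked lists were used. Per the deposited notes both libraries of a pool were merged and lists were made from pool I, pool J, both pools or pooled reads. The signal value deposited by the authors is in a unit not stated. The score deposited by the authors is a scaled IDR, with a lowest value of 540 in each thresholded list. In the deposited ranked lists, −log10 of the IDR stands in a column of its own. Which aligner and which peak caller were used is not given in the sources used here. Inputs of the ranked list of both pools were matched to the pools by identical intervals (84.8% of the first to pool I, 62.5% of the second to pool J, 0% crosswise). Reads of the CAST alleles were placed on the C57BL/6J reference, and the effect on peaks was not tested.

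Summits were placed against GENCODE M21 basic transcripts; promoters are 1000 bp to each side of any TSS, and a gene spans its record, which can start before its basic transcripts. Motif learning took the strongest 1000 conservative summits on odd-numbered autosomes outside the channel loci, and the scanner was tested on simulated data. Learning started from the textbook core of the CTCF motif and was refined on the 700 summits that matched best, so the motif was not found without a prior. No p-values were computed. The members, the gene lists and the motif direction count were chosen with earlier results of these data known. Some members are counted but not described singly, as they are not reported here. Named genes were otherwise those with a promoter summit, the 3 with the strongest and the 3 with most summits per class, the longest without, those called in 1 pool only, and the clusters. Alternatives covered the list, the IDR, windows, overlap and motif score. Tools were pandas 2.3.3, numpy 2.4.6, SciPy 1.17.1, pysam 0.24.0 and matplotlib 3.10.9 under Python 3.11.15.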

Additional observations from a re-analysis of the deposited data

How the results depend on the processing

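Of 41 alternative values, 30 stayed close to the value reported (within 1.5 times for counts, within the interval for the rest). The promoter count moved to 36 of 89 in the pool I list and 39 with a window of 5000 bp, where all genes gave 38.6% and 40.0%. Density per 100 kb moved to 3.06 in pool I (all genes 4.58), 1.92 in pool J (2.82) and 1.16 in members over 100 kb (1.78). The motif share moved to 15.9% with a score that 0.1% of flanking windows pass (all 18.5%), 47.4% in pool I (57.2%) and 62.0% in pool J (64.1%). The share of pool I summits found in pool J moved to 47.7% with reciprocal overlap of 50% (all 52.0%) and 89.2% with both lists at the same number of strongest peaks (88.8%); under the latter the channel share was above that of all summits rather than below it. The share of motifs against the gene, with alternatives chosen after seeing the data, moved to 76.0% at the stricter score (all 51.6%), and was 64.1% without Kcnip1, Kcnma1 and Kcnip4. The cause of these moves was not tested, beyond the smaller or larger number of peaks or genes that each alternative takes in.

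No paired analysis was possible because both libraries of a pool were merged before peaks were called, and the technical replicate numbers shared by the pools pair no values. With 1 merged value per pool there is no replicate error within a pool, and differences between the pools cannot be told apart from differences between their animals. Depth is unknown, so a gene without a summit is one without a called peak at this depth. Summits were assigned by distance, which does not show which gene a site acts on.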
